A study of Mus musculus with 30 samples.

Results

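The response of the colon to 17β-estradiol (E2) was described in male C57BL/6J mice on a high-fat diet (HFD). The members were chosen by their labels: 6 HFD males given E2 and 6 HFD males given vehicle, which are 12 of the 30 colons of the series. All 12 mice were male, were 5 to 6 weeks old at the start, ate the diet with 60% of energy from fat for 13 weeks, and were injected intraperitoneally 9 times over the last 3 weeks. The treated mice received 0.5 mg E2 per kg body weight, and by design the vehicle group (HFD M) and the E2 group (HFD+E2 M) differ in the ligand. By the study's account, HFD males given E2 also had lower body weight, total fat and fasting glucose. Their food intake was not successfully monitored. Males on a control diet given vehicle (CD M, n = 6) and females on that diet given vehicle (CD F, n = 6) are used where stated; the control diet had 10% of energy from fat. RNA was taken from frozen colon tissue (distal colon by the study's methods, colon in the labels), in which epithelium, muscle, vessels, nerves and immune cells lie together, so fewer cells of a type and less RNA per cell cannot be told apart.

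Each mouse gave 1 library of 8667177 to 14283233 counts with vehicle and 9064697 to 17243712 with E2. Levels are given as CPM, counts scaled to a common library total with TMM factors for composition, as the lowest, median and highest of 6 mice. Of the colon markers, Cdx1, Car1, Slc26a3, Aqp8 and Muc2 were present in all 12 libraries, while Cdx2 reached no more than 0.727 TPM. Ddx3y was present and Xist near 0 in all 12, as the label male requires. In 2 vehicle libraries, HFD M replicates 2 and 4, genes of stratified squamous epithelium were present, a tissue found at the anal border of the colon. The list has 25 genes, of which Tgm3 was high in every library. The other 24 summed to 870.1 CPM in replicate 2 and 162.9 CPM in replicate 4, against 6.08 to 12.3 CPM in the other 4 vehicle libraries and 8.02 to 14.2 CPM with E2. Krt13, at 81.9 TPM in replicate 2, was at most 0.119 TPM with E2. Many results are therefore also given without these 2 libraries, and those of the clock lists without replicate 2 alone.

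Genes were called in edgeR's quasi-likelihood test at a p under 0.05 and a log2 change over 0.4 in either direction, the study's threshold. The p is read here as unadjusted, which the study, using DESeq2, does not state. Genes past this threshold are called DEGs and described as higher or lower. Of 15010 genes tested, 881 were DEGs (5.87%), 395 higher (2.63%) and 486 lower with E2 (3.24%). Only 1 gene passed a Benjamini-Hochberg adjusted p under 0.05 in edgeR (0.00666% of those tested), namely Spon1, while DESeq2 called 9 higher and 17 lower at that threshold. In edgeR, single DEGs other than Spon1 are thus below the usual standard for a genome-wide test, and their p-values below are unadjusted. Of the genes described below, DESeq2 called Spon1, Smoc1, Gpx3 and Ddc higher at its adjusted threshold. It called Kif11, Top2a, Atp12a, Scnn1g, Ptgs2, Slc10a2, Knstrn, Anln, Ckap2, Kif2c, Casc5 and Cenpa lower. At an unadjusted p under 0.05 without a fold threshold there were 1535 genes (10.2%). The groups did not overlap for 32 genes higher and 32 genes lower with E2 (0.213% each). The number of DEGs depended on single mice: it was 557 without HFD M replicate 2, 1391 without HFD M replicate 5 and 1497 without HFD+E2 M replicate 1. Of the 135 DEGs named in the text or on the mitosis list, 69 kept their call in all 12 fits without 1 mouse, and 20 lost it in 6 or more: Areg, Rasd1, Fos, Rrm2, Sgk1, Scnn1b, Tac1, Krt14, Wnt5b, Irf7, Idi1, Ndufa4, Itga5, C4b, Nqo1, Gsta1, Gstm3, Bub1, Plk1 and Tpx2. Counts over the gene lists below moved in these fits as well, for example from 3 higher complement genes without HFD M replicate 2 or HFD+E2 M replicate 2, 3 or 6 to 7 without HFD M replicate 6. Lower antioxidant genes, 7 in the fit of all 12 mice, were 3 without HFD M replicate 1 or 2 and 4 without HFD+E2 M replicate 3 or 4. Without HFD M replicates 2 and 4, 530 genes passed, of which 426 were among the 881. Libraries of the E2 group lay closer to their group mean over the 500 most variable genes (22.2 ± 4.0 against 26.7 ± 4.64 with vehicle, log2 CPM distance, mean ± SD, n = 6 per group), which did not pass the exact permutation test (p = 0.126). On variance stabilized values the difference was -5.29 and passed (exact permutation test, p = 0.0325). It did not pass over all genes tested (-3.89, exact permutation test, p = 0.409). Without squamous genes and their correlates it was -2.68 (exact permutation test, p = 0.292), and without HFD M replicates 2 and 4 -3.86 (exact permutation test, p = 0.229).

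**Figure D1:**
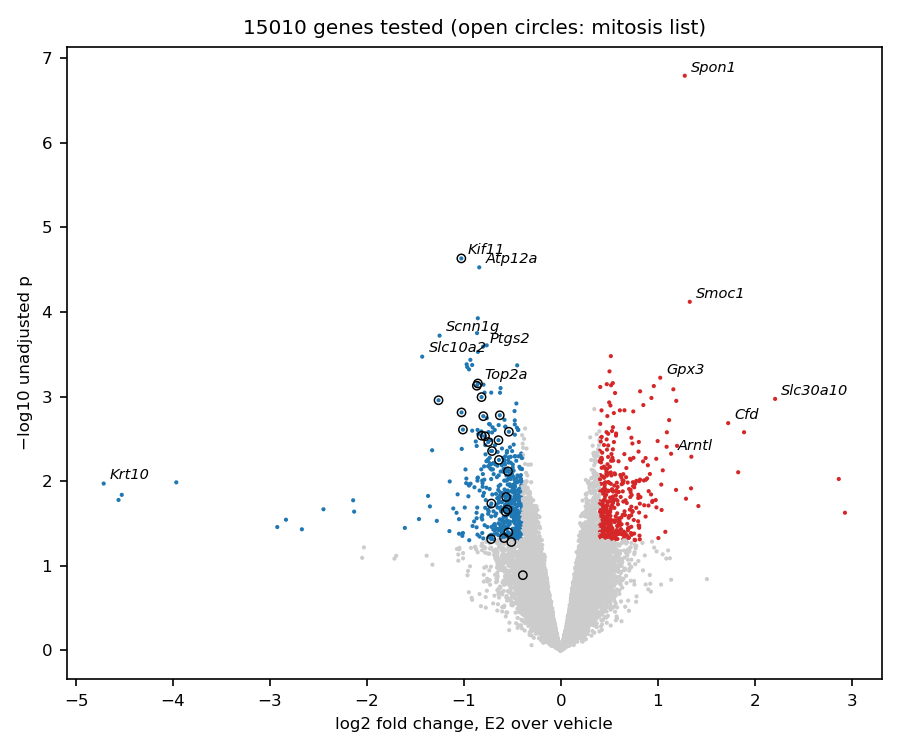
Log2 fold change of each gene tested (x axis, E2 over vehicle) against −log10 of its unadjusted p (y axis); red and blue points are the 395 higher and 486 lower DEGs, grey points the other genes, and open circles the 26 genes of mitosis. All 26 circles lie left of 0, and Spon1 stands alone at the top.

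E2 acts through 2 nuclear receptors, Esr1 (ERα) and Esr2 (ERβ), which bind DNA as dimers or attach to other factors, and through the membrane receptor Gper1. In the colon, Esr2 is best known from the epithelium and Esr1 from stroma and immune cells. None of these 3 receptor genes passed the test. Esr1 stood at 5.95, 9.72 and 13.4 CPM with vehicle and 5.38, 7.79 and 10.2 CPM with E2, and Esr2 at 4.16, 4.96 and 6.3 and 3.07, 4.08 and 4.6 CPM, with log2 fold changes (E2 over vehicle) of -0.32 (SE 0.20) and -0.32 (SE 0.18). Gper1 stood at 0.694, 0.987 and 1.52 and 0.528, 1.06 and 1.79 CPM, with a log2 fold change of 0.028 (SE 0.32). Pgr, the progesterone receptor and a classical E2 target of the uterus and breast, had too few counts for the fit. Its counts in the 6 vehicle mice were 5, 6, 5, 5, 4 and 3, and in the 6 E2 mice 34, 7, 20, 16, 6 and 5. In log2 CPM the E2 group was higher by 0.99 (exact two-sided permutation test over 924 splits, p = 0.00649, n = 6 per group), although the groups overlapped and a library of 3 to 7 counts carries a large counting error. Of a list of 23 estrogen-responsive genes of other tissues, 17 were tested. Rasd1, a small GTPase, was higher, and Areg, an EGF receptor ligand, and Fos, a component of AP-1, were lower, but none of the 3 passed without the 2 squamous libraries.

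The smallest p was that of Spon1 (chr7:113765998-114043370, plus strand, GRCm38), which encodes F-spondin, a secreted matrix protein first known from axon guidance in the floor plate. It stood at 6.18, 7.32 and 9.39 CPM with vehicle and 14.8, 16.7 and 24.6 CPM with E2, so that every treated mouse was above every control. The log2 fold change was 1.28 (SE 0.15, edgeR with Benjamini-Hochberg adjustment, adjusted p = 0.00241), or 2.43-fold. Leaving out any 1 mouse kept it between 1.16 and 1.36 with an adjusted p of at most 0.0117, and without HFD M replicates 2 and 4 it was 1.28 (edgeR, adjusted p = 0.0567). In CD M it stood at 6.82, 8.72 and 10.7 CPM, close to the vehicle mice. Smoc1, another secreted matrix protein, which binds calcium and modulates BMP signals, had the largest log2 fold change of the matrix list. It stood at 1.25, 2.42 and 3.33 CPM with vehicle and 3.2, 6.04 and 7.46 CPM with E2 (log2 fold change 1.33, SE 0.26, unadjusted p = 7.57e-05). In 5 of 6 treated mice it was above all controls, and it kept its call in all 12 fits without 1 mouse.

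Of 22 tested genes of matrix remodeling and matricellular proteins, 5 were higher and none lower, with a median log2 fold change of 0.10 against 0.0011 over all genes tested. Besides Spon1 and Smoc1 these were Thbs1 (thrombospondin 1), Bgn (biglycan) and Spon2. Thbs1 stood at 34.8, 44.2 and 53.3 CPM with vehicle and 49.1, 62.0 and 78.9 CPM with E2 (log2 fold change 0.51). Of 19 genes of fibroblasts and collagens, 3 were higher and none lower, with a median of 0.27. Fn1, fibronectin, stood at 401, 544 and 619 and 573, 768 and 885 CPM (log2 fold change 0.50, SE 0.13), and Col6a3, a collagen VI chain, at 98.2, 146 and 163 and 142, 205 and 266 CPM (0.54, SE 0.15). Both groups overlapped for each. Fbln1, fibulin 1, was the third, at 0.43, and did not pass without the 2 squamous libraries, where 4 genes of the first and 2 of the second list were DEGs. The 22 genes of BMP, hedgehog and stromal Wnt signals had 1 DEG, Wnt5b, with a median of -0.02.

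**Figure D2:**
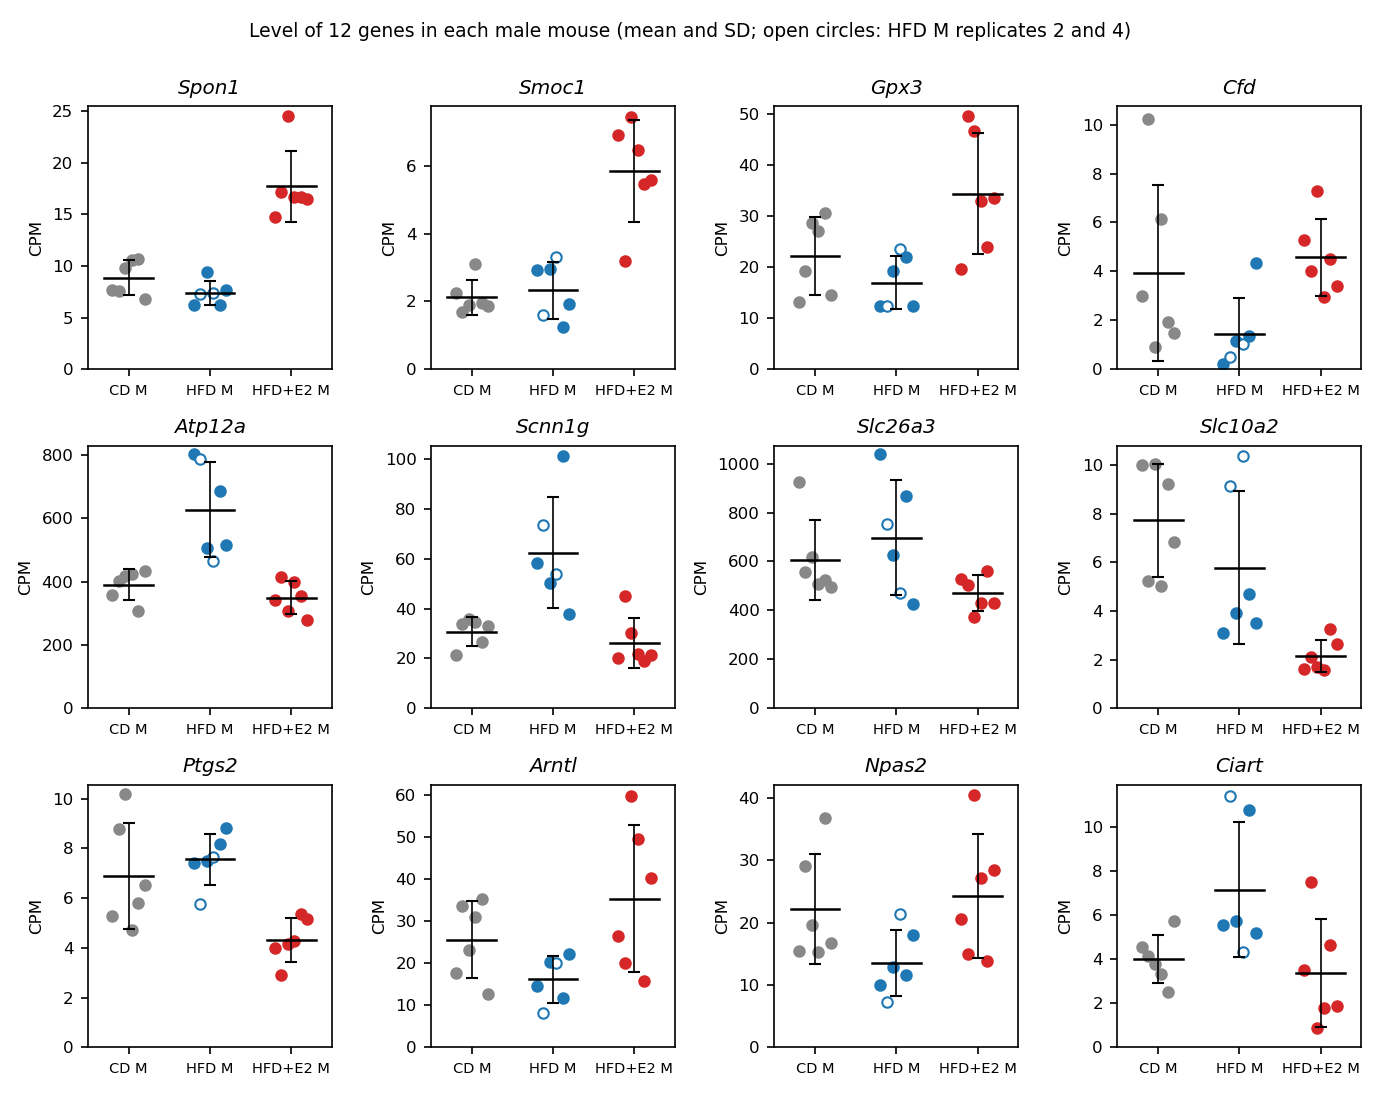
CPM (y axis, linear from 0) of 12 genes in each CD M, HFD M and HFD+E2 M mouse, with the mean and SD of 6 mice; open circles are HFD M replicates 2 and 4. Spon1, Atp12a and Ptgs2 separate the 2 HFD groups without overlap, while Arntl, Npas2 and Ciart spread widely within the E2 group.

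Of the lists described here, that of mitosis held the most DEGs, and the DNA before the starts of its genes is shown because promoters of such genes are known for elements that time them to late G2 and mitosis. These are the CHR, with the core TTTGAA, bound by the DREAM and MuvB complexes, and CCAAT boxes, bound by NF-Y. The stretches are the 120 bases before the start in RefSeq (GRCm38.p6), read 5′ to 3′ on the gene's own strand, of the 6 genes of the list with the smallest p-values among those with 1 entry. Capitals mark CHR and CCAAT letters on either strand.
Kif11, chr19:37376262-37376381, plus strand: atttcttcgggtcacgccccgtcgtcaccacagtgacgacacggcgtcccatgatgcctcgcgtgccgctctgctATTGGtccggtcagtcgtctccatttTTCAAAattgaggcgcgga
Top2a, chr11:99024190-99024309, minus strand: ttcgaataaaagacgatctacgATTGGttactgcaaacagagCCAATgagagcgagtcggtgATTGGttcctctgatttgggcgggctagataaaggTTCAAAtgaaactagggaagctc
Melk, chr4:44300797-44300916, plus strand: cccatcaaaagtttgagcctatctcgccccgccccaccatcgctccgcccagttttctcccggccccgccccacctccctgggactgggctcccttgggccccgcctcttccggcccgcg
Ccnb2, chr9:70421555-70421674, minus strand: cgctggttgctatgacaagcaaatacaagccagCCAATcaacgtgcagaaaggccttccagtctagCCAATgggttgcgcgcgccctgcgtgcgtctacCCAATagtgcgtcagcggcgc
Ccnb1, chr13:100786487-100786606, minus strand: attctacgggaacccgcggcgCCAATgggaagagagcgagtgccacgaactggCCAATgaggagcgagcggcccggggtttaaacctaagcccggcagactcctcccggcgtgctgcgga
Ube2c, chr2:164769809-164769928, plus strand: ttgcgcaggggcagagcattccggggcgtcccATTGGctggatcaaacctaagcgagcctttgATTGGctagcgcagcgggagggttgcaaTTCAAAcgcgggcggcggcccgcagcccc

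In the full windows of 250 bases before to 50 after the start, TTTGAA was found on either strand in 14 of 21 tested mitosis genes with an entry (66.7%), in 3 of 20 genes of DNA replication (15%) and in 17.9% of all 32851 entries. CCAAT was found in 18 of 21, 12 of 20 and 37.4%, and in 42.4% of tested genes with an entry. Of 8 tested clock repressors with an entry, 7 held it as well. In Kif11, Top2a and Ube2c a CHR began 19, 23 and 29 bases before the start, and in Ccnb2 5 bases after it. Top2a and Ccnb2 each held another, 179 and 167 bases before the start. Ccnb1 and Melk held no TTTGAA in the window, and variants of these letters were not searched. Among genes lower with E2, 27.3% of 341 with an entry held TTTGAA, among genes higher with E2 12.2% of 255, and among all genes tested 14.4%. With the mitosis list left out, the share among the lower genes was 24.5% of 322. That list does not cover all genes that work in mitosis: Knstrn, Anln, Ckap2, Kif2c, Casc5 and Cenpa, described below, were lower too. The palindromic estrogen response element, GGTCA and its inverted repeat 3 bases apart, was found in 2 of the 10448 tested genes with an entry, none of which changed, and in 23 of all 32851 entries. These are matches of letters and were not tested for binding.

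Genes of mitosis were lower with E2. Of 26 genes, all 26 had a negative log2 fold change and 24 were lower DEGs, none higher, with a median of -0.71. The exceptions were Nek2 (-0.51, unadjusted p = 0.0524) and Birc5 (-0.39, unadjusted p = 0.129). Kif11 (chr19), the kinesin that drives spindle poles apart, stood at 28.4, 34.0 and 58.4 CPM with vehicle and 11.5, 18.7 and 20.7 CPM with E2 (log2 fold change -1.03, SE 0.18, unadjusted p = 2.32e-05). Its groups did not overlap, nor did those of Top2a, the topoisomerase that untangles chromosomes, at 81.1, 91.5 and 188 and 41.5, 59.6 and 73.9 CPM (-0.85, SE 0.20), and of Ttk, a spindle checkpoint kinase, at 5.34, 7.09 and 18.3 and 2.19, 4.67 and 5.16 CPM (-1.01, SE 0.28). Ccnb1 and Ccnb2, the cyclins that activate Cdk1 at mitotic entry, gave -1.26 (SE 0.32) and -0.82 (SE 0.21). Ube2c, which serves the anaphase-promoting complex, stood at 4.57, 6.93 and 13.6 and 2.19, 4.04 and 5.16 CPM (-1.02). Cdk1 itself gave -0.72, Aurkb -0.82, Plk1 -0.58 and the proliferation marker Mki67 -0.57, at 184, 334 and 442 CPM with vehicle and 141, 218 and 299 CPM with E2. The factor Foxm1, which activates many of these genes, gave -0.56.

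The mean log2 CPM of the 26 genes was 3.75, 3.96 and 4.74 with vehicle and 2.75, 3.37 and 3.70 with E2, so that each treated mouse was below each control. The highest value was that of HFD M replicate 2, the library with the most squamous epithelium, a tissue with dividing basal cells, and the part of those cells in the result was not tested. Without HFD M replicates 2 and 4, 16 of 26 genes were lower and the median was -0.50. With the squamous score as a covariate these were 16 and -0.48, and over fits without 1 mouse 17 to 26 and -0.80 to -0.52. CD M spanned the values of the vehicle group, at 3.65, 4.21 and 4.97. Genes chosen after their values were seen, because they had the smallest p-values outside the lists, also include several that work in mitosis: Knstrn, a kinetochore protein (14.4, 16.7 and 20.8 and 7.23, 8.9 and 13.5 CPM, -0.86), Anln, which builds the cleavage furrow (-0.76), Ckap2 (-0.85), Kif2c (-0.93), Casc5 (-0.97) and Cenpa (-0.95), the histone of centromeres.

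**Figure D3:**
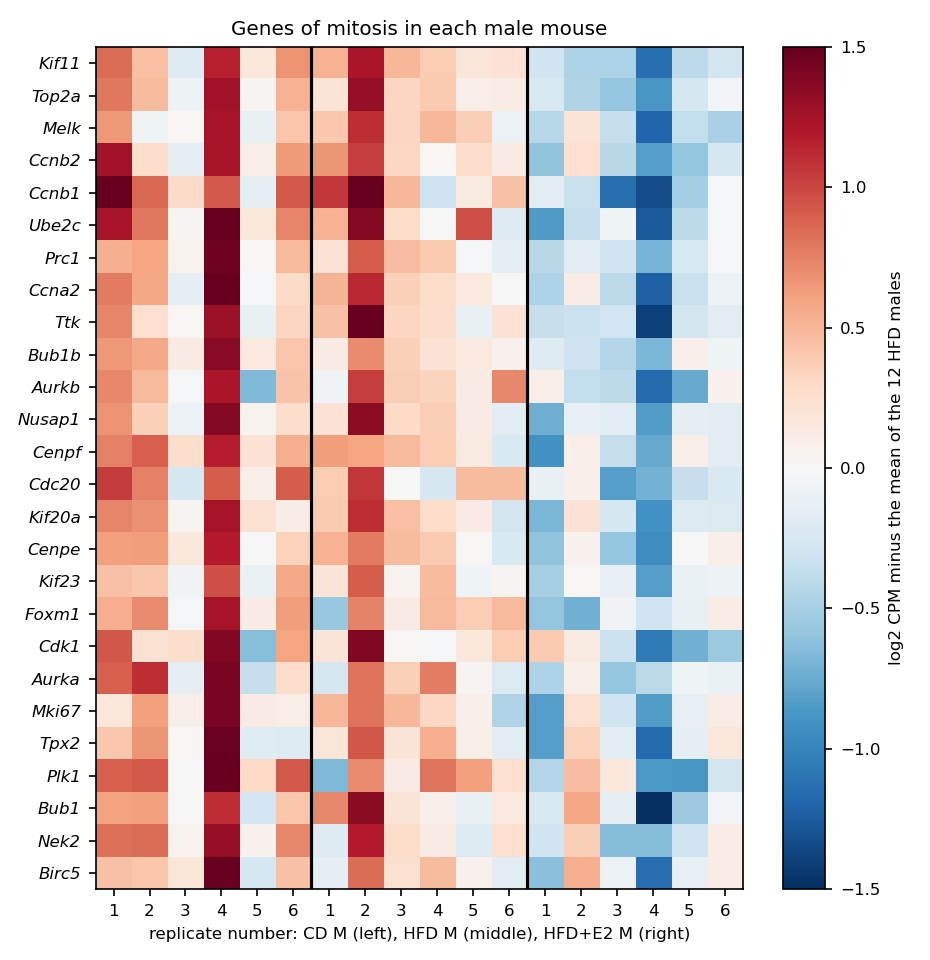
Log2 CPM of each gene of mitosis (rows, ordered by p) in each CD M, HFD M and HFD+E2 M mouse (columns), minus the mean of the 12 HFD males; red is higher and blue lower, and colors end at 1.5. HFD M replicate 2 is the reddest column of the HFD mice and HFD+E2 M replicate 4 the bluest.

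Of 27 tested genes of DNA replication, 4 were lower and none higher, with a median of -0.16. The count rested on single mice: it was 0 without HFD M replicate 2, HFD+E2 M replicate 3 or HFD+E2 M replicate 4, 1 without HFD+E2 M replicate 5, 2 without HFD M replicate 6 or HFD+E2 M replicate 2, 7 without HFD+E2 M replicate 1, 8 without HFD M replicate 5 and 9 without HFD+E2 M replicate 6, and the median went from -0.32 to -0.057. The difference from the mitosis list was not tested, and without the 2 squamous libraries none passed and the median was -0.01. The 4 were Rfc3, a clamp loader (-0.42), Prim1, the primase (-0.49), Cdc45, of the helicase (-0.64), and Rrm2, of ribonucleotide reductase (-0.70). None of 14 genes of crypt stem cells and Wnt targets was a DEG, and their median was 0.04. Of 12 cell cycle inhibitors and tumor suppressors, Stk11 (Lkb1), the kinase that activates AMPK, was higher at 0.48 and Wee1, which holds Cdk1 inactive, lower at -0.51. Both were also DEGs without the 2 squamous libraries.

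Clock genes keep a daily rhythm through activators (Clock, Arntl and Npas2) that switch on their own repressors (Per, Cry, Rev-erb and Ciart), so the hour of sacrifice sets much of their level. By the study's account the mice were killed at 1 time of day, and the hour of each mouse is not used here. Of 3 activators, Arntl (Bmal1) and Npas2 were higher. The study named both from these samples, as it did Ciart and Tef below. Arntl stood at 8.23, 17.4 and 22.2 CPM with vehicle and 15.9, 33.4 and 59.9 CPM with E2 (log2 fold change 1.14, SE 0.34, unadjusted p = 0.00474), and Npas2 at 7.34, 12.2 and 21.3 and 13.8, 23.9 and 40.5 CPM (0.86, SE 0.29). Clock was at -0.047 (SE 0.11). Of 10 repressors, Ciart alone was a DEG, lower at 4.34, 5.64 and 11.4 against 0.867, 2.68 and 7.51 CPM (-1.11, SE 0.43). This call was lost without HFD M replicate 2, where 0 repressors were lower and their median was -0.24. Over all fits without 1 mouse, 0 to 3 repressors were lower. The activators kept 2 higher DEGs in each of these fits, with a median of 0.73 without HFD M replicate 2. Per3 at -0.39 (unadjusted p = 0.0127) and Nr1d2 at -0.34 (unadjusted p = 0.0494) missed the fold threshold, Per2 gave -0.42 (SE 0.24), Per1 -0.12, Cry1 -0.26, Cry2 0.0063, Nr1d1 0.20, Bhlhe40 -0.029 and Bhlhe41 -0.23. Of the output factors Tef was lower at -0.47, while Dbp gave -0.27 (SE 0.34), Hlf -0.20 and Nfil3 0.014. The output factors held 0 to 1 lower DEGs over fits without 1 mouse, and 1 without HFD M replicate 2. Rora gave -0.12. Values within the E2 group were wide: Arntl differed between its lowest and highest mouse by more than the medians of the groups did, and the groups overlapped for every clock gene named here.

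The E-box CACGTG, through which Clock and Arntl act, was found in 4 of 8 repressors with an entry (50%) against 7.15% of all entries and 11.3% of genes tested, with 8.8% among genes lower and 8.24% among genes higher with E2. The 4 repressors were Ciart, Per1, Cry1 and Bhlhe41, of which Ciart alone was a DEG. Ciart held 3 E-boxes in the 120 bases before its start, shown here because it was the repressor called, with the E-boxes in capitals.
Ciart, chr3:95882229-95882348, minus strand: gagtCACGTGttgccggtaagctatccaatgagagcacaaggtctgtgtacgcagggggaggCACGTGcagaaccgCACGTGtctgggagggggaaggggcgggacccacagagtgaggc

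Surface transport genes changed in both directions. Atp12a, the colonic proton-potassium pump that takes up potassium, had the smallest p after Spon1 and Kif11. It stood at 467, 601 and 804 CPM with vehicle and 279.9, 349 and 413 CPM with E2 without overlap (log2 fold change -0.84, SE 0.15, unadjusted p = 2.96e-05), and at 306, 409 and 433 CPM in CD M. Slc26a3, the chloride-bicarbonate exchanger, was lower at 428, 691 and 1040.5 against 372, 468 and 561 CPM (-0.57, SE 0.19), and Car4, a membrane carbonic anhydrase, higher (0.45). These were the 3 DEGs among 15 tested genes of surface colonocytes, whose median was 0.01. Of 12 genes of aldosterone-responsive sodium transport, 3 were lower and 1 higher. Scnn1g, the γ subunit of the epithelial sodium channel, stood at 38.1, 56.2 and 101 and 18.9, 21.5 and 45.1 CPM (-1.25, SE 0.25, unadjusted p = 0.00019), with 1 treated mouse inside the vehicle range, and Scnn1b, the β subunit, gave -0.55 (SE 0.25). Sgk1, the kinase that keeps the channel at the surface, gave -0.72 (SE 0.32), while Hsd11b2, which shields the mineralocorticoid receptor from glucocorticoids, was higher at 0.52 (SE 0.17). Without the 2 squamous libraries Atp12a, Slc26a3, Scnn1g and Scnn1b were DEGs and Sgk1 was not.

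Among 10 genes of goblet cells, 3 were higher and none lower, with a median of 0.34. Muc2, the main gel-forming mucin, stood at 1208, 2019 and 2345 CPM with vehicle and 2129, 2581 and 3368 CPM with E2 (0.52, SE 0.16), Fcgbp, a mucus protein, gave 0.42, and Spdef, a factor of goblet cell maturation, 0.48 (SE 0.16). No gene of this list was a DEG without the 2 squamous libraries, and the median was then 0.13. Of 10 genes of enteroendocrine cells, Chgb (17.7, 28.3 and 39.3 and 23.2, 51.4 and 70.7 CPM, 0.81), Chga (0.77) and Tph1, which makes serotonin in the gut (0.86), were higher and Tac1, which encodes substance P and is also made by neurons, lower (-0.52). Only Chgb was a DEG without the 2 libraries. Ddc, the next enzyme of serotonin synthesis, chosen after its values were seen, stood at 38.3, 47.4 and 57.9 and 51.7, 67.0 and 76.1 CPM (0.50, SE 0.12). Of 5 tuft cell genes tested, none was a DEG. Saa1, an acute phase protein, was the only DEG of 5 tested defense genes, at 207, 334 and 437 and 304, 506 and 691 CPM (0.53). Of 18 tight junction genes, Cldn1 was lower (-0.72) and Marveld3 higher (0.42), both no longer DEGs without the 2 libraries.

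Of the redox genes that changed, the 2 higher, Gpx3 and Sod3, encode secreted enzymes. The study named both from these samples, as it did Prdx1 and Gsto1 among those lower. Of 29 antioxidant and glutathione genes, 2 were higher and 7 lower, with a median of -0.07. Gpx3, the extracellular glutathione peroxidase, stood at 12.3, 15.8 and 23.5 CPM with vehicle and 19.6, 33.2 and 49.6 CPM with E2 (1.03, SE 0.24, unadjusted p = 0.000599), and Sod3, the extracellular superoxide dismutase, at 4.73, 8.24 and 10.4 and 6.66, 12.9 and 18.2 CPM (0.72, SE 0.23). The cytosolic peroxiredoxin Prdx1 stood at 123, 141 and 239.8 and 79.0, 92.3 and 159.9 CPM (-0.68, SE 0.20), and the glutathione transferase Gsto1 at 162, 195 and 366 and 136, 152 and 160.4 CPM (-0.52). The other lower genes were Nqo1, Gsta1, Gsta4, Gstm3 and Gstm5, and transferases with near-identical copies can share reads. Without the 2 squamous libraries 2 were higher and 3 lower. Of 16 eicosanoid enzymes, Ptgs2 (Cox-2), the inducible prostaglandin synthase, was the only DEG, lower at 5.75, 7.59 and 8.82 against 2.9, 4.23 and 5.38 CPM without overlap (-0.80, SE 0.18, unadjusted p = 0.000257).

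Of 19 cytochrome P450 and flavin monooxygenase genes, Cyp3a13 (-0.43) and Cyp2b10 (-1.08) were lower and Cyp2e1 (1.29) higher. Of 15 genes of steroid metabolism, 3 were higher and 4 lower. Hsd17b2, which turns E2 into estrone, stood at 42.7, 60.9 and 72.7 CPM with vehicle and 68.4, 78.7 and 105 CPM with E2 (0.47, SE 0.14), and Hsd17b11 at 32.7, 41.7 and 50.7 and 47.5, 57.0 and 60.8 CPM (0.42). Hsd17b7, which works in cholesterol synthesis and can form E2, was lower (-0.64, SE 0.22), as were Srd5a1, Akr1c14 and Ugt1a1. Sult1e1, the sulfotransferase that inactivates E2, was not a DEG (-1.05, SE 0.52, unadjusted p = 0.0639). Slc10a2, the apical bile acid transporter, stood at 3.08, 4.3 and 10.4 and 1.58, 1.89 and 3.26 CPM (-1.43, SE 0.32, unadjusted p = 0.000337), and Slc51b, a subunit of the basolateral exporter, was higher (0.63). They were the 2 DEGs of 8 tested genes of bile acid handling. The 23 genes of fatty acid and cholesterol synthesis held 2 lower DEGs, Idi1 (-0.81) and Me1 (-0.49), neither of them a DEG without the 2 libraries. The count was 6 with the replicate block, 7 without HFD+E2 M replicate 6, 6 without HFD M replicate 3 or HFD M replicate 5, 1 without HFD M replicate 6 or HFD+E2 M replicate 2 and 0 without HFD M replicate 1, HFD M replicate 2, HFD+E2 M replicate 3 or HFD+E2 M replicate 4. Creb3l3, a membrane-bound factor of lipid metabolism, was the only DEG of 21 genes of fatty acid oxidation and ketogenesis, at 1.39, 1.82 and 2.34 and 2.38, 3.58 and 5.12 CPM without overlap (0.96, SE 0.24). None of 16 genes of lipid uptake and droplets was a DEG. In the respiratory chain, Ndufa4 was lower among 20 nuclear genes (-0.54) and mt-Nd3 among 8 mitochondrial ones (-1.15).

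Immune genes that were DEGs were mostly higher with E2, but most genes of the immune lists were not DEGs. Of 18 complement genes, 5 were higher and 1 lower, with a median of 0.17. Cfd (adipsin), also made by fat cells, stood at 0.225, 1.09 and 4.36 CPM with vehicle and 2.94, 4.25 and 7.29 CPM with E2 (1.73, SE 0.47). It was the 1 DEG of 12 genes on the adipocyte list, which held 1 to 3 higher and 0 to 1 lower over fits without 1 mouse. Adipoq, the adipocyte marker, was not a DEG, at 0.701, 1.12 and 3.79 TPM with vehicle and 0.482, 2.36 and 4.23 TPM with E2. The part of fat cells in the Cfd result was not tested. C1qb of macrophages stood at 7.58, 14.2 and 16.3 and 11.9, 20.7 and 30.2 CPM (0.65, SE 0.22), C1qa and C4b were higher too, and Cfb gave 0.50. The terminal component C7 was lower at 14.4, 22.6 and 31.1 against 11.5, 15.8 and 22.1 CPM (-0.53, SE 0.19). Without the 2 squamous libraries 2 were higher and none lower. Of 15 macrophage and monocyte genes, Ly6c2 (0.268, 0.473 and 1.38 and 0.601, 1.44 and 3.18 CPM, 1.35) and Itgam (0.48) were higher, and the median was 0.21. Siglec1 (0.94, SE 0.24) and Mgl2 (0.85, SE 0.22), surface proteins of tissue macrophages chosen after their values were seen, were higher as well. Of 25 interferon response genes, Oas2 (1.19), Oasl2 (0.71), Zbp1 (0.66) and Irf7 (0.41) were higher and none lower, with a median of 0.11 that was -0.00037 without the 2 libraries. None of 20 cytokines and chemokines, 6 T cell genes or 15 B cell genes was a DEG. The B cell median was 0.42, but it rested on single mice, being 0.017 without HFD+E2 M replicate 3, 0.17 without HFD M replicate 4 and 1.14, with 5 higher DEGs, without HFD M replicate 6.

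Of the remaining tissues, smooth muscle had 3 DEGs of 19, with Hspb7 (0.48) and Lmod1 (0.47) higher and Pln, phospholamban, lower (-0.56). Vip (-0.44), a relaxing neuropeptide, and Elavl4 (-0.51), a neuronal RNA-binding protein, were lower among 17 genes of enteric neurons and glia, and both were DEGs without the 2 squamous libraries. Vwf was the 1 DEG of 16 endothelial genes (0.45). Among stress genes, Hspb1 (0.52) and Bag3 (0.42) were higher of 16 heat shock genes, and Ern2 (0.42) and Ddit3 (0.43) of 18 genes of endoplasmic reticulum stress. Slc3a1, a cystine transporter subunit, was higher (1.0) and Psat1, of serine synthesis, lower (-0.93) among 16 amino acid genes. Of 22 glycolysis genes Hk1 was higher (0.43), of 16 hypoxia genes Actn4 (0.45) and Sod3, of 10 class II genes H2-DMb1 (0.80) and of 9 plasma cell genes Ighg2b (2.87, SE 0.93). Ighg2b had few counts, 9, 15, 1, 0, 0 and 15 with vehicle and 5, 46, 197, 17, 14 and 74 with E2. No class II gene was a DEG without HFD+E2 M replicate 3. No gene was a DEG among 10 of the IGF system and 4 of mast cells and eosinophils, and Fos was the only one among 19 immediate early genes. The squamous list had 6 tested genes, of which Krt10 (0.744, 1.55 and 117 CPM with vehicle and 0.549, 0.766 and 1.32 CPM with E2) and Krt14 were lower DEGs through HFD M replicates 2 and 4 and not without them. The study named 20 genes for this comparison, of which 9 were higher and 10 lower DEGs, the exception being Anxa1 (-0.57, unadjusted p = 0.0645). As they were chosen on these samples, their count is not independent evidence. The same holds where these genes enter the list counts above: Arntl, Npas2, Ciart, Tef, Gpx3, Sod3, Prdx1, Gsto1, Stk11 and Wee1. Actn4, Thbs1, Sgk1, Irf7, Cdk1, Melk and Mki67 are further such genes. The study genes not yet given are Alcam (-0.46) and Bcl6 (0.42).

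**Figure D4:**
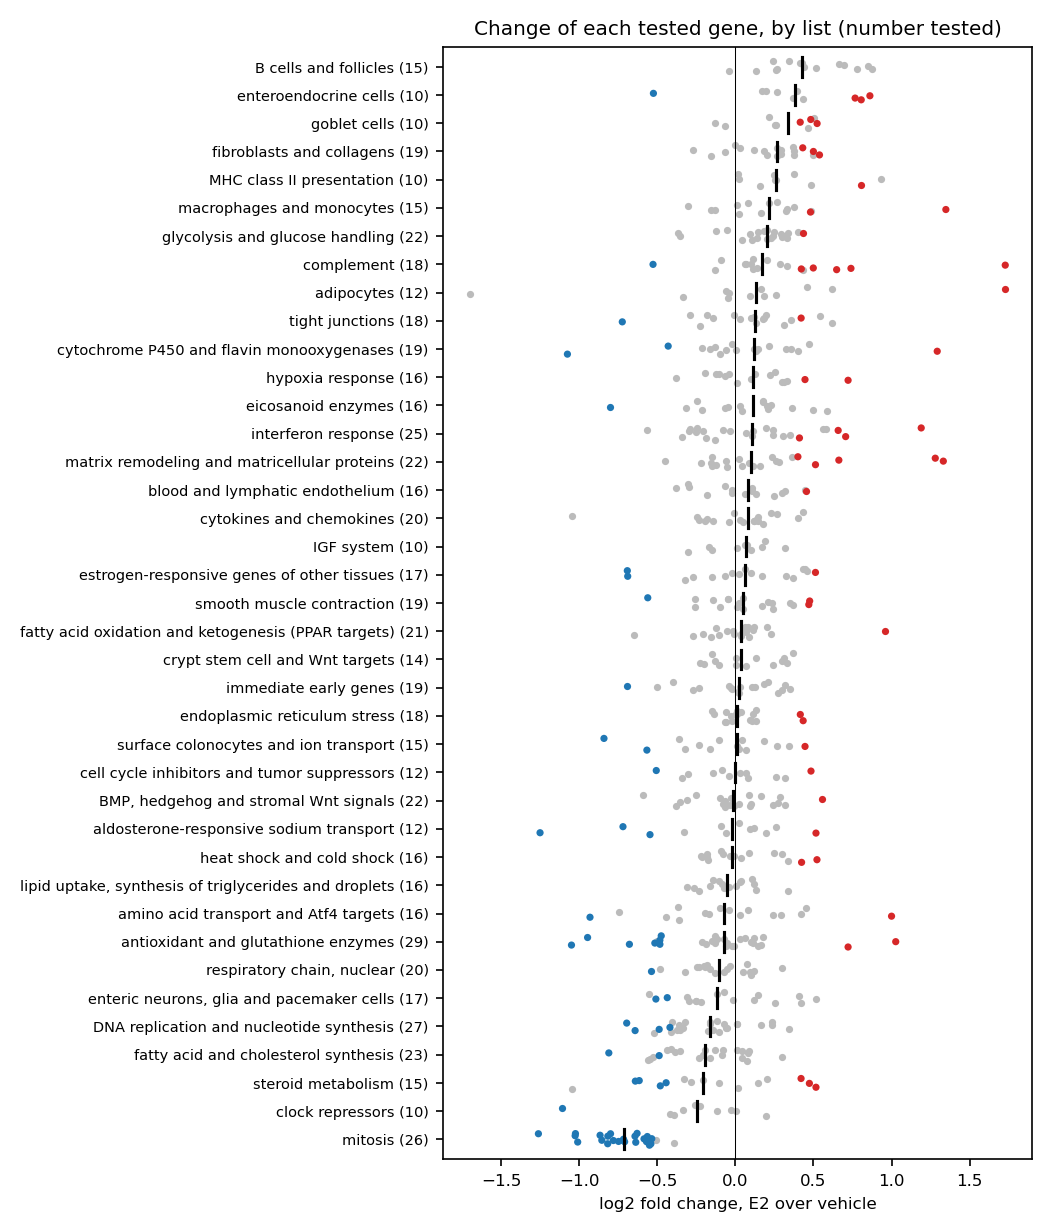
Log2 fold change (x axis, E2 over vehicle) of each tested gene of the lists with 10 or more tested genes, the study's own 20 genes (median -0.47) left out (rows, number tested in parentheses); red and blue points are higher and lower DEGs, grey points the other genes, and black bars the medians. The mitosis list stands apart at the bottom with a median of -0.71, and the other medians drawn lie between -0.24 and 0.42.

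Because E2 is the main ovarian estrogen, the genes were set beside the difference between CD F and CD M, which shares no library with the E2 comparison. Of 14746 genes tested in both, 869 were E2 DEGs and 1350 differed between the sexes by the same threshold, 9.15% of the genes tested there. Past both were 144 genes, 16.6% of the E2 DEGs and 10.7% of the sex DEGs, and 105 of these had the same direction, with females on the side of E2. The same sign was seen for 58.7% of all 869 E2 DEGs and for 50.9% of all genes tested in both. Of the 144, 47 were higher and 58 lower in both, 30 were higher with E2 and lower in females, and 9 the reverse. With the sex difference at an adjusted p under 0.05 in edgeR, 2.92% of genes tested there passed, and 44 E2 DEGs were among them, 33 of them in the same direction.

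Genes in the same direction included Slc10a2 (sex log2 fold change -1.29, E2 -1.43), Slc30a10, a manganese exporter (2.15 and 2.21, at 0.0835, 0.195 and 0.851 CPM with vehicle and 0.226, 1.5 and 2.73 CPM with E2), Arntl (1.16 and 1.14), Npas2 (0.80 and 0.86), Ciart (-2.61 and -1.11), Tef (-1.25 and -0.47), Tph1 (1.54 and 0.86), Muc2 (0.57 and 0.52) and Ddc (0.50 and 0.50). C7 was lower in females by 5.03 on the log2 scale and lower with E2 by 0.53. In the other direction, Fn1 (-0.72 and 0.50), Col6a3 (-0.72 and 0.54), Itga5, the fibronectin receptor subunit (-0.77 and 0.41), and Mfap4 of elastic fibers (-1.0 and 0.71) were higher with E2 and lower in females, Itga5, Mfap4 and Slc30a10 being named after their values were seen. Spon1 did not pass between the sexes (0.031, edgeR with Benjamini-Hochberg adjustment, adjusted p = 0.969), and neither Kif11 (-0.25) nor Atp12a (0.20) passed.

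**Figure D5:**
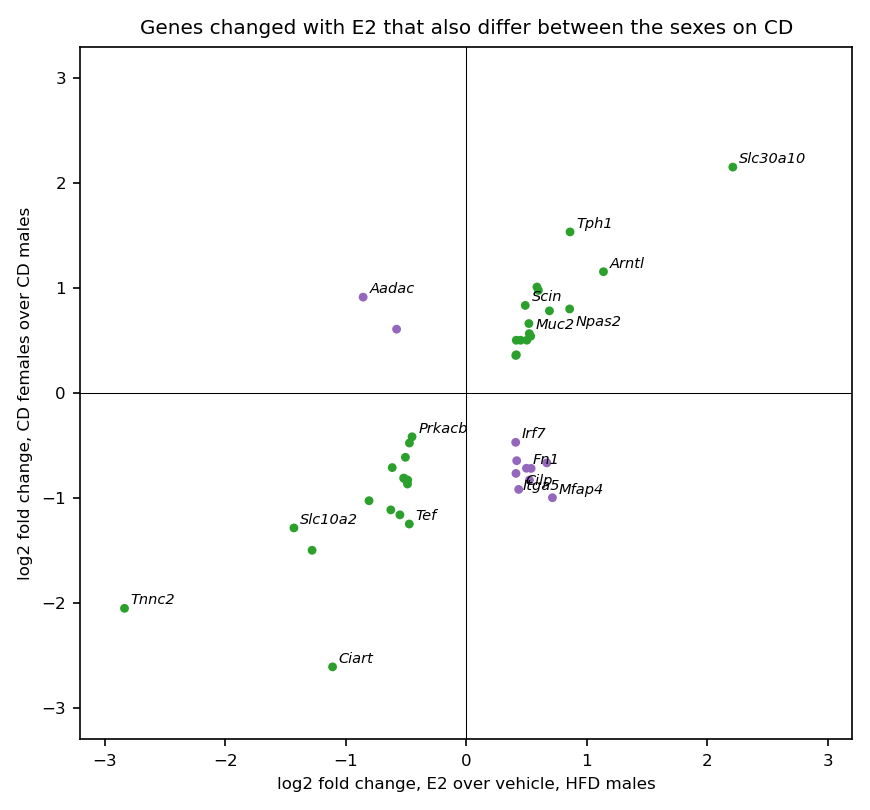
Log2 fold change of E2 over vehicle in HFD males (x axis) against CD females over CD males (y axis) for 43 of the 44 E2 DEGs with an adjusted p under 0.05 between the sexes; green points have the same direction and purple points the opposite. The 1 gene outside the axes is C7. Fn1, Itga5, Mfap4 and Irf7 lie at the lower right, higher with E2 and lower in females.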

How the data were processed

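RNA was measured by total RNA-seq after ribosomal depletion with a stranded kit. The authors trimmed read pairs with Trim Galore, aligned them to GRCm38 with STAR and assigned them to genes with featureCounts, and these deposited counts are whole numbers without normalization for 46078 genes. Versions other than that of bcl2fastq (2.19.1.403), and whether counting used strand, are not given in the sources used here, so overlapping genes cannot be told apart. The authors calculated TPM with StringTie, and the deposited TPM values were used for marker checks and 1 alternative. In that unit 7SL RNA took 3.83 to 35.3% of a library's total and the median log2 fold change of all genes was -0.12, so levels are printed as CPM computed from the counts.

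The 12 libraries were fitted with edgeR 4.0.16 in R 4.3.3 (filterByExpr, TMM, robust quasi-likelihood F-test without a block, Benjamini-Hochberg adjustment). The standard error follows from the F statistic. Whether the study's p-value was adjusted is not stated, so both thresholds are given. DESeq2 1.42.0 and limma 3.58.1 were alternatives, and scripts were tested on simulated data. The members and gene lists were chosen with earlier results of these data known. Named genes are those past the adjusted threshold without overlap, up to 4 per list with the smallest p among DEGs, estrogen and progesterone receptors, the study's genes and clock genes, and genes chosen after their values were seen, which are those so marked, further DEGs of a list beyond its 4, and Adipoq; all genes of the mitosis list were also kept. Some genes that this rule takes are not reported here. The labels call the 6 mice of a group biological replicates. Same-numbered mice correlated by -0.24 to 0.35 across groups, so numbers were not taken as pairs. Depth limits genes of a few counts.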

Additional observations from a re-analysis of the deposited data

Results flagged for a closer look

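For the 6 mice of each group, a named gene's log2 CPM was marked where the gap from the highest or lowest mouse to the next exceeded 0.625 of the group's range (Dixon). Values below are log2 CPM. Of 316 groups of values looked at, 31 were marked, where chance marks about 1 in 20. In log2 CPM, HFD M replicate 2 had the highest Top2a (7.53), Cldn1 (3.53), Gsto1 (8.49), Psat1 (3.84), Cdk1 (4.30), Nek2 (4.35), Nusap1 (5.28) and Ttk (4.19) and the lowest Ptgs2 (2.54). HFD M replicate 5 held the highest Scnn1b (6.15). HFD M replicate 6 had the highest Vwf (4.60). HFD+E2 M replicate 1 gave the highest Prdx1 (7.33), Ndufa4 (5.41) and Cry1 (3.63) and the lowest Chgb (4.55), Chga (3.48) and Bag3 (4.20). The mouse HFD+E2 M replicate 2 had the lowest Smoc1 (1.72) and Nfil3 (-1.11). Values apart in HFD+E2 M replicate 3 were the highest Spon1 (4.61). HFD+E2 M replicate 4 showed the highest Atp2c2 (6.79) and the lowest Kif11 (3.53), Cyp2e1 (-2.03), Psat1 (0.60), Clock (7.86), Anln (3.38), Casc5 (3.03), Slc30a10 (-1.34) and Ttk (1.23). In HFD+E2 M replicate 6 these were the lowest Cyp2b10 (-2.55) and Scin (6.33). The marked library with the highest mitosis genes, HFD M replicate 2, is also the one with the highest squamous epithelium genes, at 870.1 CPM over 24 genes, and a link between these was not tested. The lowest values of Kif11, Anln, Casc5 and Ttk with E2 all came from HFD+E2 M replicate 4. Spon1 in HFD+E2 M replicate 3 was the highest value of that gene, and without this mouse its log2 fold change was 1.16 (edgeR with Benjamini-Hochberg adjustment, adjusted p = 0.00651).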

How the results depend on the processing

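The number of genes at an adjusted p under 0.05 was 1 in the reported fit, 26 in DESeq2, 3 without a filter on low counts, 7 with the replicate block, 0 with all 30 libraries in 1 fit and 0 without HFD M replicates 2 and 4 (chosen after seeing the data), and 1 to 2 without 1 mouse. Spon1 was among them in every fit but those with 0 and the TPM fits, which called Scnn1g. The 881 DEGs became 1805 without a filter, 506 with the squamous score, 530 without HFD M replicates 2 and 4, 1535 without a fold threshold and 557 to 1497 without 1 mouse. Scaling moved the split: 121 higher and 1104 lower at TPM + 1 and 1452 genes, 150 of them higher, at TPM + 0.1, where the median of all genes was -0.12 and -0.16, against 395 and 486 on counts. Without HFD M replicate 6 it was 675 and 489. Among genes changed with E2 at the adjusted threshold, 0 differed between the sexes, 3 in DESeq2 and 1 with the replicate block. The difference in distance to the group mean was -5.29 on variance stabilized values (exact permutation test, p = 0.0325) and -4.48 in the main setting. It was -3.89 over all genes tested, -2.68 without squamous genes and their correlates and -3.86 without HFD M replicates 2 and 4, none of which passed. Replicate numbers are shared by label only: with the block DEGs were 622 higher and 536 lower, and 1 of 6 mice correlated best with its own number. Of the 135 DEGs named or on the mitosis list, 2670 of 3228 alternative fits kept the call, 556 lost it and 2 turned, both Krt14. Signs turned as follows (log2 fold change), mostly for genes near 0 that were never called: squamous score Krt14 0.70, Gper1 -0.11, Cry2 -0.047, Nfil3 -0.007, then without replicates 2 and 4 Krt14 0.85, Gper1 -0.11, Cry2 -0.021, Nfil3 -0.039, then the replicate block Gper1 -0.0062, Cry2 -0.0023, Nfil3 -0.030, then B cell score Gper1 -0.012, Bhlhe40 0.01, Nfil3 -0.041, then TPM + 1 Gper1 -0.032, Cry2 -0.21, Nfil3 -0.061, then TPM + 0.1 Gper1 -0.10, Cry2 -0.23, Nfil3 -0.19, then smooth muscle score Cry2 -0.061. Without 1 mouse the ranges were Gper1 -0.19 to 0.18, Clock -0.075 to 0.015, Per1 -0.28 to 0.035, Cry2 -0.12 to 0.13, Bhlhe40 -0.095 to 0.044, Nfil3 -0.17 to 0.20. The cause of these changes was not tested.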
